A study of Homo sapiens with 6 samples.

Results

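In the H3K4me2 ChIP-seq of vehicle-treated LNCaP cells, 48 stretches of the autosomes held peak records packed closely side by side. These dense clusters were chosen on the positions of the vehicle records alone. Vehicle records on chromosomes 1 to 22 were sorted, records separated by a gap of 3000 bp or less were stitched, and stitched clusters of 6 or more vehicle records were kept. The 48 clusters were 0.0674% of the 71166 stitched clusters of the vehicle list and held 367 of its 97240 records (0.377%). How many vehicle records a cluster held, and how close together they lay, was therefore fixed by the choice and is given as a description. LNCaP is a prostate cancer cell line whose growth responds to androgen.

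The 6 samples formed 3 groups of 2 replicates, all of LNCaP cells kept for 3 days in charcoal-stripped serum, which is low in steroid hormones. The vehicle group is labelled as vehicle without GSK. The other groups are labelled DHT (dihydrotestosterone, an androgen) with GSK2879552 for 4 h (GSK 4 h) or 24 h (GSK 24 h), whereas the treatment protocol names GSK2879552 alone, so that effects of the androgen and of the inhibitor cannot be told apart. The authors deposited 1 peak list per group that combined both replicates, so no value below has a replicate error and no difference between lists could be tested.

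H3K4me2, histone H3 dimethylated at lysine 4, is known to mark enhancers and the flanks of active promoters. Methyl groups are placed there by the MLL/SET1 family of methyltransferases and are removed by demethylases that include LSD1 (KDM1A), the target of GSK2879552. Several peak records close together can come from 1 broad marked domain that the caller split, from separate regulatory elements, or from copies of a tandem repeat, a unit of DNA repeated head to tail. Arrays of the 5S ribosomal RNA genes on chromosome 1 and of the D4Z4 units near the ends of the long arms of chromosomes 4 and 10 are known examples of such repeats. The records are in the hg19 build. No annotation of genes or repeats and no sequence of that build was used here, so no cluster was assigned to a gene or a repeat by position.

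Besides the number and length of records, each record gave 2 further levels that the choice of clusters did not use directly. The summit height is the number of DNA fragments stacked at the highest point of a record, divided by the genome-wide level of its list. The local background is the number of sequenced tags in the 10 kb around a summit, as the peak caller counted them, also divided by the genome-wide level. Both were recovered from the fold enrichment and p-value of each record, and the highest value in a cluster is quoted. The recovered depth was 9.43 tags per kb for vehicle, 10.1 for GSK 4 h and 8.98 for GSK 24 h, and the fragment lengths were 221, 186 and 219 bp. The whole vehicle list was also shorter than the GSK lists, with 97240 records against 124364 (GSK 4 h) and 123292 (GSK 24 h) on the autosomes.

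Most dense clusters were close to the limit of 6 records. There were 29 clusters of 6 records and 7 clusters of 7, while only 6 clusters held 10 or more (10, 11, 15, 17, 20 and 20). Just outside the limit lay 141 stitched clusters of 5 records. The clusters of 5 spanned a median of 4.97 kb, and those of 6 a median of 7.11 kb. Over all 48 clusters the span ran from 4.08 to 41.0 kb with a median of 7.60 kb, and the summed span was 544 kb. They lay on 17 autosomes, with 8 on chromosome 17 and 4 each on chromosomes 4, 10, 11 and 16.

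Records inside the clusters had more signal around them than other H3K4me2 records, which the choice itself favours. With records packed this closely, the 10 kb around a summit takes in neighbouring records. That raises the local background and lowers the fold enrichment over it, so the values here are a description. The median vehicle record inside a cluster had a summit height of 39.8 times the genome-wide level, against 11.04 over the whole list, and a local background of 12.1 against 1.57. Its fold enrichment over that background was lower, 2.90 against 4.95, and it was shorter, 387 against 476 bp. The same order held in the GSK lists. The median fold enrichment was 2.82 inside the clusters and 4.86 over the list in GSK 4 h, and 2.79 and 4.72 in GSK 24 h.

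By position and spacing, the clusters were sorted into 3 kinds. The limits of these kinds were set after the data had been seen and used record positions, not levels or GSK record numbers. First, 12 clusters lay within 1 Mb of the longest stretch of their chromosome that held no record in any list, and these form a kind of their own whatever their spacing. In 8 of the 48 clusters, more than 50% of the distances between neighbouring vehicle summits were within 5% of the median distance. The 6 of these 8 that were not beside a record-free stretch are called the evenly spaced clusters below, and the other two, chr4:49139043-49151961 and chr11:51579439-51593284, were left beside the stretch. The remaining 30 clusters were neither. By spacing alone, 5 of the 6 clusters with 10 or more records and 4 of the 141 clusters of 5 records were even. The 12 clusters beside a record-free stretch were 25% of the dense clusters, whereas 1.60% of all stitched clusters lay that close.

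The 6 evenly spaced clusters had fewer tags around their summits, relative to the genome-wide level, in both GSK lists than in vehicle. They had fewer at 24 h than at 4 h, in each of the 6. This did not hold for the 2 evenly spaced clusters beside a record-free stretch, whose local background was 20.4, 11.2 and 21.2 times the genome-wide level (chr4:49139043-49151961) and 22.9, 22.4 and 26.6 (chr11:51579439-51593284) in vehicle, GSK 4 h and GSK 24 h. The share of all stitched clusters with such an order of the lists was not counted, and the fall describes the 6 and not all evenly spaced clusters. Their median local background was 14.3 times the genome-wide level in vehicle, 10.1 in GSK 4 h and 5.85 in GSK 24 h. The median ratio to vehicle was 0.674 (range 0.511 to 0.826) at 4 h and 0.465 (0.217 to 0.645) at 24 h. Their highest summits had median heights of 84.7, 34.3 and 28.7 times the genome-wide level, and each of the 6 was lower at 24 h than at 4 h and lower at 4 h than in vehicle. At 24 h all 6 had a local background at least 1.5-fold lower than vehicle. This was so for 7.00% of all stitched clusters of 2 or more vehicle records with a record in both lists. Unlike that wider set, the 6 were chosen for many, evenly spaced vehicle records, so their share is not independent of the choice. No separate input or copy-number measure was compared here, so the tag counts alone do not show a change in the mark itself.

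The cluster with the strongest vehicle signal of these was chr1:228744042-228782393, where 15 of 19 distances between vehicle summits were close to the median of 2232 bp. It held 20 vehicle, 19 GSK 4 h and 15 GSK 24 h records. Its local background was 68.5 times the genome-wide level in vehicle, 41.9 in GSK 4 h and 31.0 in GSK 24 h, which corresponds to 6462, 4237 and 2784 tags in 10 kb. Its highest summit was 187 times the genome-wide level in vehicle, the highest among the 48 clusters in that list, and 91.9 and 68.7 in the GSK lists. The record number thus fell little at 4 h while the signal fell by more. The position of the records also moved. All 19 GSK 4 h summits lay within 25% of a unit of a vehicle summit, at a median distance of 130 bp, whereas at 24 h this was true of 1 of 15 summits and the median distance was 690 bp. The 25% on either side of each vehicle summit takes in a large part of a unit, so summits placed at random would often fall within it.

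The clusters at the ends of chromosomes 4 and 10 fell furthest in local background. The cluster chr4:190986665-191014075, whose last base was 30.3 kb from the last record of the chromosome in any list, held 11 vehicle records at a median summit distance of 3259 bp. It held 10 records in GSK 4 h and 3 in GSK 24 h, and the median gap between records grew from 2905 to 11261 bp at 24 h. Its local background was 13.8, 7.06 and 3.00 times the genome-wide level in vehicle, GSK 4 h and GSK 24 h. Although 10 records were called at 4 h, only 3 of them had a summit within 25% of a unit of a vehicle summit, and the median distance was 1478 bp, or 45.3% of a unit. At 24 h, 2 of the 3 summits lay within this limit, at a median distance of 258 bp, or 7.92% of a unit. The highest summit was 72.9 times the genome-wide level in vehicle, 21.8 at 4 h and 10.17 at 24 h.

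The cluster chr10:135478726-135501263 had nearly the same spacing, 3277 bp, and ended 22.7 kb before the last record of chromosome 10. Its record number went the other way, with 8 vehicle records and 10 in each GSK list, the highest ratio among the 48 clusters when the records of both GSK lists were added together. Its signal nevertheless fell as at the end of chromosome 4, from a local background of 21.8 times the genome-wide level in vehicle to 11.1 in GSK 4 h and 5.55 in GSK 24 h. Here 8 of 10 summits at 4 h and all 10 at 24 h stayed within 25% of a unit of a vehicle summit. More records did not go with more signal at this cluster.

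The longest spans belonged to chr19:36759671-36800711 and chr4:132645900-132685873. In the chromosome 19 cluster, each of the 16 distances between its 17 vehicle summits was within 5% of 2529 bp. It held 18 records in GSK 4 h and 16 in GSK 24 h, while its local background went from 12.4 times the genome-wide level in vehicle to 9.12 and 6.16. Its neighbour on the same chromosome, chr19:37759723-37793127, had a similar spacing of 2507 bp, held 15, 16 and 13 records, and had local backgrounds of 14.8, 11.3 and 7.08. All 18 and 16 GSK 4 h summits and all 16 and 13 GSK 24 h summits of these 2 clusters lay within 25% of a unit of a vehicle summit. In the chromosome 4 cluster, with 11 of 19 distances close to 2441 bp, the records thinned from 20 in vehicle to 15 and 10, and the local background from 7.75 to 6.40 and 5.002.

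**Figure D1:**
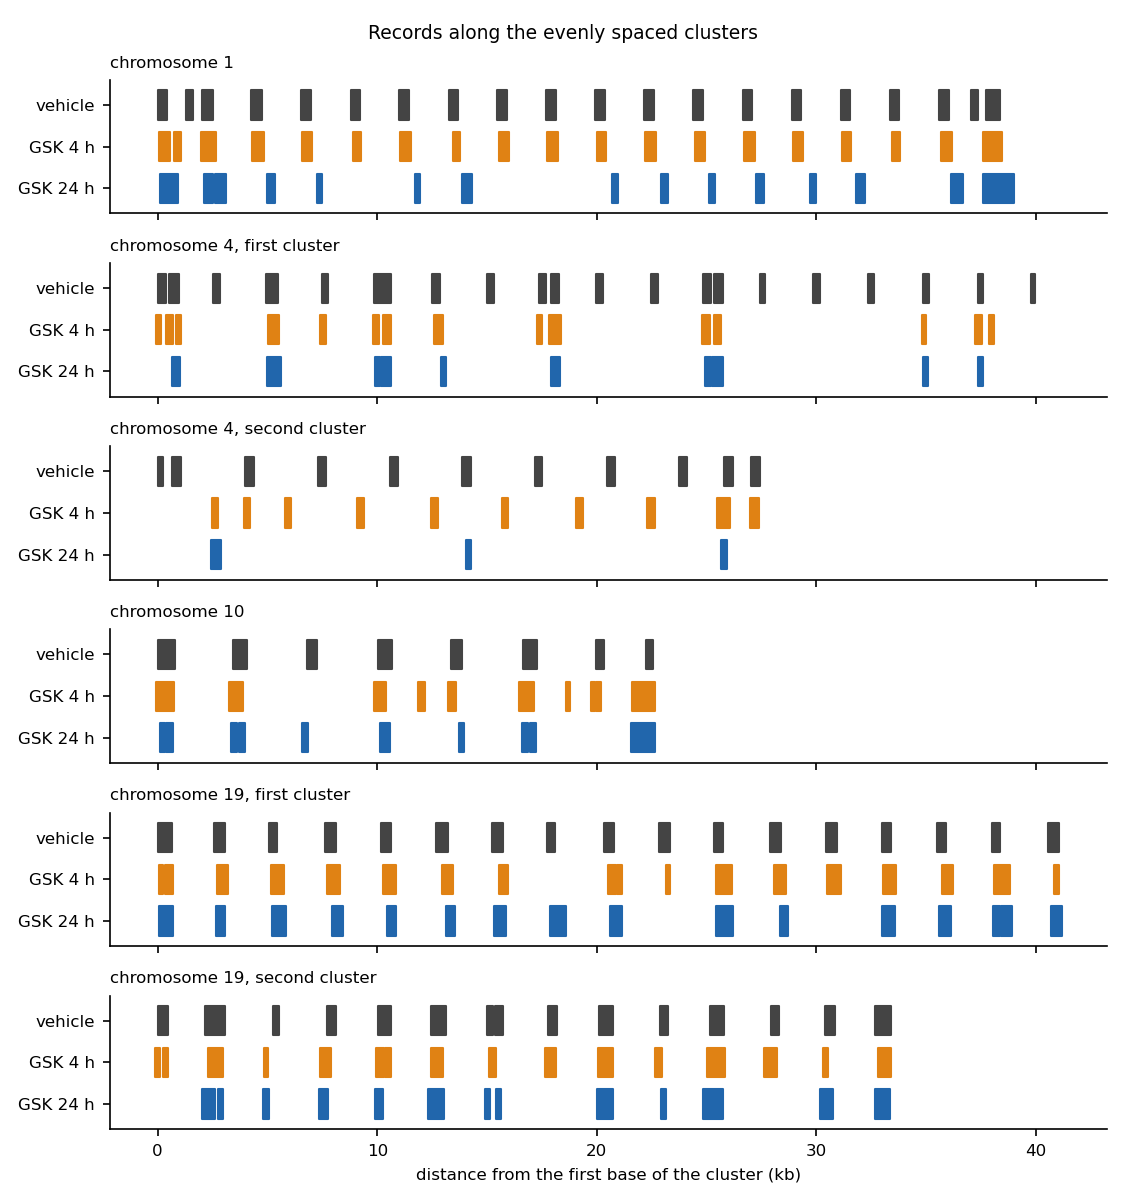
Positions of the records along the 6 evenly spaced clusters, as distance in kb from the first base of the cluster, with 1 row for each list and 1 bar for each record drawn to its length. The rows held 17, 18 and 16 records in the first chromosome 19 cluster, thinned on the first chromosome 4 cluster from 20 to 10 records, and were reduced to 3 records at 24 h on the second.

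Summed over the evenly spaced clusters, the lists held 91 (vehicle), 88 (GSK 4 h) and 67 (GSK 24 h) records, which covered 39.8, 37.3 and 28.8 kb. The even pattern was looser in the GSK lists. Distances at a whole multiple of the unit of the cluster, within 5% of the unit, were 66 of 85 in vehicle, where they served to choose the kind, 41 of 82 in GSK 4 h and 22 of 61 in GSK 24 h. Of the vehicle records, 76.9% (Wilson 95% interval 67.3 to 84.4) overlapped a GSK 4 h record and 50.5% (40.5 to 60.6) a GSK 24 h record. These intervals cover counting error only. In the whole vehicle list, 84.4% of records overlapped a GSK 4 h record and 86.1% a GSK 24 h record. Reads from repeated units can map to several places. How such reads were treated is not given in the sources used here, and its part in these values was not tested.

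The 12 clusters beside a record-free stretch showed another order of the lists. They lay on 8 chromosomes at a median of 7.75 kb from the stretch and had the highest local background of the 3 kinds, with a median of 23.1 times the genome-wide level in vehicle. All 12 had their lowest local background in GSK 4 h and their highest in GSK 24 h. The share of all stitched clusters with this order was not counted. In the 12 clusters the median ratio to vehicle was 0.787 (range 0.548 to 0.974) at 4 h and 1.21 (1.04 to 1.37) at 24 h. From 4 h to 24 h their median ratio was 1.54. Median ratios above 1 were also found in smaller stitched clusters. They were 1.11 at 4 h and 1.15 at 24 h with 2 vehicle records, and 1.14 and 1.04 with 5. The 1.21 at 24 h is thus to be read against those levels and not only against 1. The highest background of all 48 clusters was at chr16:46386617-46395029, with 88.8 times the genome-wide level in vehicle, 58.7 in GSK 4 h and 119 in GSK 24 h. This cluster was singled out after its values were seen.

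Their records changed far less than their levels. The 12 clusters held 85 vehicle, 87 GSK 4 h and 85 GSK 24 h records, and 96.5% (Wilson 95% interval 90.1 to 98.8) of the vehicle records overlapped a GSK 24 h record. The median distance from a GSK summit to the nearest vehicle summit was 26 bp at 4 h and 7 bp at 24 h. The cluster chr2:92306748-92320643 held 9, 11 and 9 records, with local backgrounds of 51.5, 37.2 and 62.1 times the genome-wide level. The cluster chr4:49139043-49151961 held 6, 7 and 7 records, with 20.4, 11.2 and 21.2, and chr8:46849160-46856363 held 7, 6 and 7 records, with 22.8, 18.1 and 28.7. Covered length was lower at 4 h in all 12, with a summed ratio of 0.889, and was 1.04 times vehicle at 24 h. The shorter fragments of the GSK 4 h list went together with its lower covered length, and their part in it was not tested.

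The remaining 30 clusters held 6 to 10 vehicle records over a median of 6931.5 bp, with a median local background of 11.3 times the genome-wide level. Their records became fewer but longer. They held 191 vehicle, 159 GSK 4 h and 138 GSK 24 h records, and the median record was 362, 509 and 514 bp long. A single GSK record overlapped 2 or more vehicle records in 14.5% of cases (Wilson 95% interval 9.84 to 20.8) at 4 h and 15.2% (10.17 to 22.1) at 24 h, against 4.31% and 4.65% of the records of the whole GSK lists. The summed covered length was 1.01 times vehicle at 4 h despite the smaller number of records, and 0.893 times vehicle at 24 h. The clusters were chosen for many vehicle records, so these shares are not independent of the choice.

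Local background in the 30 clusters was most often highest at 4 h, in 19 of them. The share of all stitched clusters that were highest at 4 h was not counted. In the 30 clusters the median ratio to vehicle was 1.19 at 4 h and 0.980 at 24 h. It was 1.14 and 1.04 in stitched clusters of 5 vehicle records, so the value at 4 h lay near that level. A few clusters with high vehicle summits fell well below vehicle at 24 h. At chr17:79366891-79374536 the highest summit was 176 times the genome-wide level in vehicle, 58.5 in GSK 4 h and 48.8 in GSK 24 h, the local background was 49.5, 28.5 and 17.3, and yet the cluster held 6, 7 and 5 records. Local background at least 1.5-fold below vehicle at 24 h was found in this cluster and in 4 others, which were singled out after their values were seen: chr7:5459014-5469966, chr7:150777939-150786242, chr16:67193659-67199843 and chr16:67875544-67882421. The record numbers of these 4 were 7, 6 and 4, then 6, 7 and 4, then 7, 6 and 4, and then 6, 4 and 4 in vehicle, GSK 4 h and GSK 24 h. Of these, chr16:67875544-67882421 was still highest at 4 h, with local backgrounds of 14.1, 14.4 and 9.28 times the genome-wide level.

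When the records of both GSK lists were added together, the lowest ratios to vehicle were found in 3 clusters of this kind, although at 24 h alone the lowest was that of the evenly spaced chr4:190986665-191014075. The cluster chr19:54662254-54666949 held 6, 3 and 3 records, chr8:67340450-67344874 held 6, 4 and 2, and chr3:19987515-19991598 held 6, 3 and 3. Their signal did not fall with the record number. Local backgrounds were 11.8, 15.1 and 12.1 times the genome-wide level on chromosome 19, 8.74, 8.56 and 8.50 on chromosome 8, and 3.80, 4.15 and 4.49 on chromosome 3. Covered lengths were 2710, 2738 and 2487 bp on chromosome 19, 2558, 2325 and 2329 bp on chromosome 8, and 1868, 1558 and 1999 bp on chromosome 3. By the mean of the log2 ratios at 4 h and 24 h, the 3 clusters with the highest local background relative to vehicle were chr17:33580674-33585383 (3.66, 4.79 and 5.17 times the genome-wide level, with 6, 4 and 4 records), chr5:180643514-180651768 (9.95, 15.1 and 12.02, with 6 records in each list) and chr1:145395188-145399694 (7.42, 9.72 and 9.68, with 6, 4 and 6 records).

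**Figure D2:**
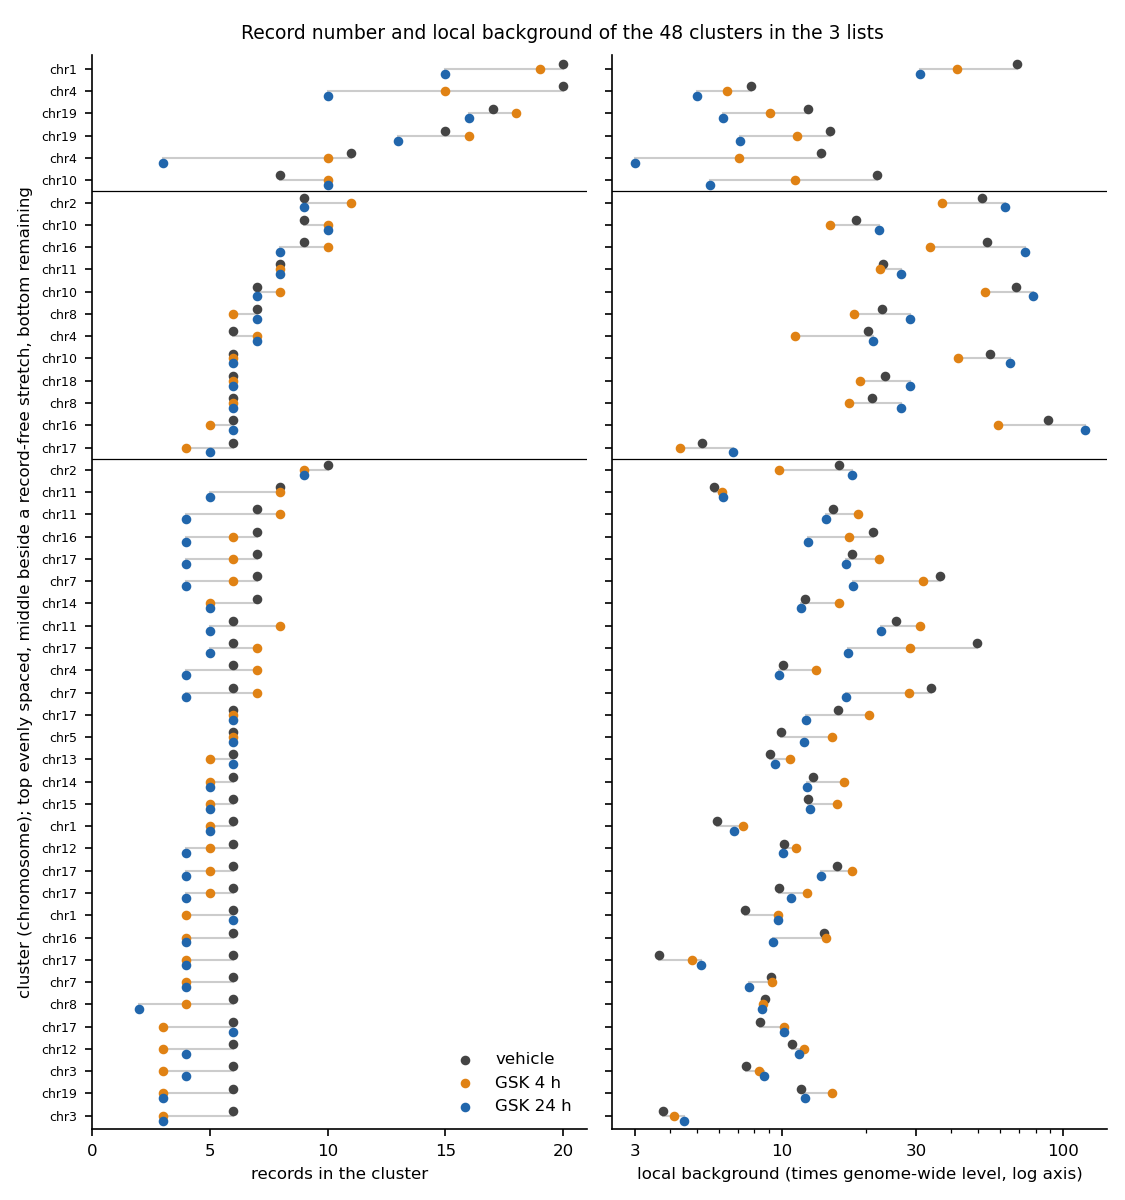
Number of records (left) and local background relative to the genome-wide level on a log axis (right) in each of the 48 clusters, 1 row a cluster, with 1 point for each list and the evenly spaced clusters on top, those beside a record-free stretch in the middle and the remaining ones at the bottom. The local background fell from vehicle to 24 h in all 6 evenly spaced clusters, was lowest at 4 h in all 12 of the middle group, and was highest at 4 h in 19 of the remaining 30. How many of all stitched clusters had each of these orders was not counted.

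Over all 48 clusters the median ratio to vehicle was 0.993 at 4 h and 1.03 at 24 h, which hides these opposite directions. In stitched clusters of 5 vehicle records it was 1.14 and 1.04. A local background at least 1.5-fold lower than vehicle was seen in 8 of 48 clusters at 4 h and 11 of 48 at 24 h, where 3.72% and 7.00% of all stitched clusters of 2 or more vehicle records were that low. A stitched cluster near the genome-wide level, the lowest value possible, could not be that low. All 48 had at least 3.66 times that level in vehicle, so the shares are not on an equal footing. The 11 were the 6 evenly spaced clusters and 5 of the remaining 30. All 48 were chosen on vehicle records, so their shares are not independent of the choice. At least 1.5-fold higher values were seen in 1 cluster at 4 h (chr5:180643514-180651768) and in 0 at 24 h, against 5.89% and 7.48% of the stitched clusters.

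**Figure D3:**
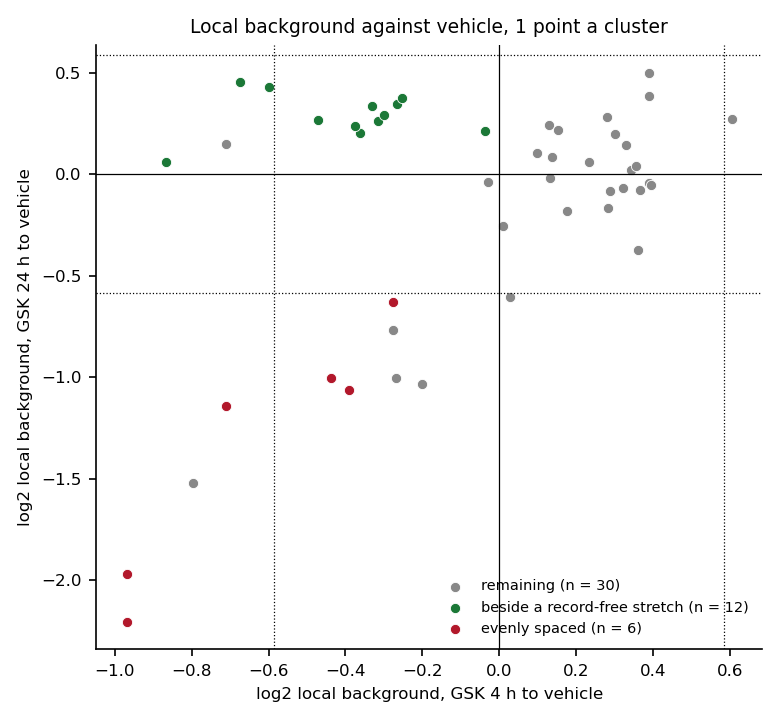
Log2 ratio of the local background to vehicle in GSK 4 h (horizontal) and GSK 24 h (vertical), 1 point for each of the 48 clusters, with dotted lines at 1.5-fold. The evenly spaced clusters lie at the lower left, with all 6 below the lower dotted line at 24 h, and the 12 clusters beside a record-free stretch lie at the upper left, below vehicle at 4 h and above it at 24 h.

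The comparison of the GSK lists with each other did not use vehicle levels, but the clusters and kinds were still chosen on vehicle records. It is therefore not free of the choice. Clusters chosen in GSK 4 h held 767 records at 4 h and 562 at 24 h, and those chosen in GSK 24 h held 461 and 577. From 4 h to 24 h the record number over the 48 vehicle clusters went from 334 to 290, with fewer records at 24 h in 21 clusters, as many in 19 and more in 8. Shares of all stitched clusters with fewer or more records at 24 h than at 4 h were not counted. Summed covered length went from 158 to 145 kb. The local background was at least 1.5-fold lower at 24 h in 8 clusters and at least 1.5-fold higher in 10, where 5.88% and 7.00% of stitched clusters passed these limits. Stitched clusters near the genome-wide level at 4 h could not pass the limit for lower values. Of the 10 that were higher, 9 lay beside a record-free stretch. Records dropped most in the evenly spaced chr4:190986665-191014075 (10 to 3 records) and chr4:132645900-132685873 (15 to 10), followed by chr1:228744042-228782393 (19 to 15) and, with the same drop, chr11:65624035-65629470 of the remaining kind (8 to 4). The largest gains were at chr17:7587414-7592728 (3 to 6 records) and chr1:145395188-145399694 (4 to 6), and each of the other clusters with a gain, such as chr8:46849160-46856363 (6 to 7), gained 1 record.

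Set against vehicle, the 48 clusters held 0.910 times as many records in GSK 4 h and 0.790 times as many in GSK 24 h, and the covered length was 163.8 kb in vehicle, 158.1 kb in GSK 4 h and 145.1 kb in GSK 24 h. Fewer records than in vehicle were found in 28 of 48 clusters at 4 h and in 32 of 48 at 24 h. Among all stitched clusters of 2 or more vehicle records the shares were 42.4% and 43.7%. A drop of this kind is built into the choice, since clusters taken for many vehicle records will tend to hold fewer in any other list. In clusters of 5 vehicle records, 69.5% held fewer at 4 h and 71.6% at 24 h, and the ratios of summed records were 0.793 and 0.773, lower than in the dense clusters.

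**Figure D4:**
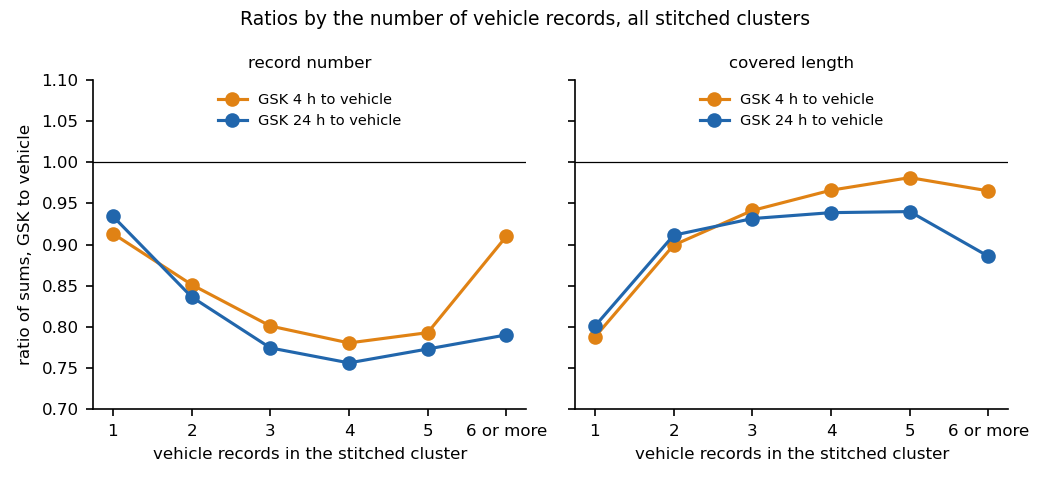
Ratio of summed record number (left) and summed covered length (right) of the GSK lists to vehicle, by the number of vehicle records in the stitched cluster, over all stitched clusters. The record ratio fell from 0.913 (4 h) and 0.934 (24 h) at 1 vehicle record to 0.780 and 0.756 at 4, and was 0.910 and 0.790 in the clusters of 6 or more.

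The same choice made in another list turned the comparison around. The GSK 4 h list gave 112 clusters of 6 or more records, which held 767 GSK 4 h, 511 vehicle and 562 GSK 24 h records. The GSK 24 h list gave 87 clusters, with 577 GSK 24 h, 389 vehicle and 461 GSK 4 h records. Of the 48 vehicle clusters, 23 (47.9%) overlapped one of the 112, and 24 of the 112 (21.4%) overlapped one of the 48. For the 24 h choice these shares were 43.8% of the 48 and 24.1% of the 87. Beside a record-free stretch, the median ratio of the local background to vehicle was 0.795 at 4 h and 1.20 at 24 h in the 11 clusters of the GSK 4 h choice, and likewise 0.795 and 1.20 in the 13 of the GSK 24 h choice. Of those 13, 1 was below vehicle at 24 h. How many of the 11 and of the 13 overlapped a dense vehicle cluster beside a stretch was not counted. The same lists gave the ratios in every choice, and a cluster found by several choices enters each median. These medians are therefore not an independent check of those in the vehicle choice. Evenly spaced clusters numbered 3 in the GSK 4 h choice and 1 in the GSK 24 h choice. The only one of these that overlapped no dense vehicle cluster, chr13:28023012-28026546, did not show the fall, with local backgrounds of 6.46, 8.29 and 7.40 times the genome-wide level in vehicle, GSK 4 h and GSK 24 h and with 3, 6 and 2 records.

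Gaps inside the clusters were wider at 24 h than in vehicle, where close spacing was fixed by the choice. Wider gaps in another list are thus partly built in, and gaps were not compared in clusters chosen in the GSK lists. The median gap between neighbouring records was 941 bp in vehicle, 966 bp in GSK 4 h and 1178 bp in GSK 24 h. Gaps over 3000 bp, which the rule barred in vehicle, numbered 17 in GSK 4 h and 24 in GSK 24 h. Of the 24, 17 lay in the evenly spaced clusters, where all 6 had at least 1, and 0 beside a record-free stretch. The longest were 9125 bp at 4 h, in chr4:132645900-132685873, and 11374 bp at 24 h, in chr4:190986665-191014075. In the remaining 30 clusters the median gap was 505, 537 and 825 bp.

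**Figure D5:**
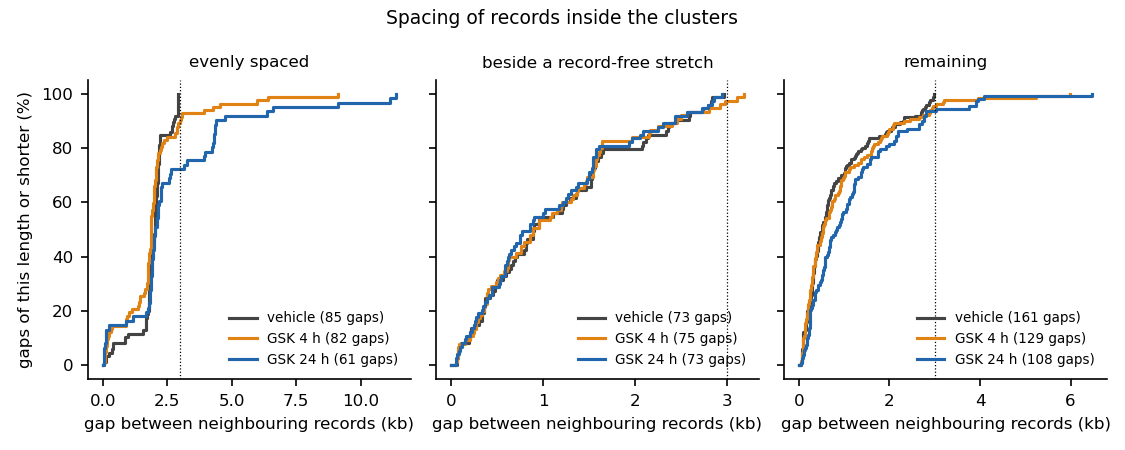
Cumulative share of the gaps between neighbouring records, in kb, for each list and each kind of cluster, with a dotted line at the limit of 3 kb used for stitching. The lists ran together beside a record-free stretch, whereas in the evenly spaced clusters 17 of 61 gaps at 24 h were over 3 kb.

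Of the 367 vehicle records in dense clusters, 83.7% (Wilson 95% interval 79.5 to 87.1) overlapped a GSK 4 h record and 75.7% (71.1 to 79.9) a GSK 24 h record, where 84.4% and 86.1% of all vehicle records did. At 24 h the share was 73.8% (68.3 to 78.7) of the 271 records inside the clusters and 81.2% (72.3 to 87.8) of the 96 first and last records. These intervals cover counting error only and take the records of a cluster as independent, so they do not test a difference. By kind the share at 24 h was 50.5% in the evenly spaced clusters, 96.5% beside a record-free stretch and 78.5% in the remaining ones. In turn, 89.5% of the 334 GSK 4 h records and 91.0% of the 290 GSK 24 h records in the clusters overlapped a vehicle record, against 67.1% and 68.2% over the lists. The share of GSK records that overlapped 2 or more vehicle records was 7.78% at 4 h and 7.93% at 24 h. The median distance from a GSK summit to the nearest vehicle summit was 108 bp at 4 h and 55 bp at 24 h.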

How the data were processed

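H3K4me2 was measured by ChIP-seq in 6 LNCaP samples, and the authors deposited 1 narrowPeak list per group. Per the deposited values, each record has a display score, a fold enrichment (a ratio), and −log10 p-values and q-values (not normalised between lists). The submitters' processing notes name BWA 0.7.2-r351, SAMtools 0.1.18, MACS2 2.0.10.20131216 and hg19 (GRCh37). The handling of multiply mapped reads is not given in the sources used here. Records were stitched and assigned to clusters by at least 1 bp with Python 3.11.15, NumPy 2.4.6, pandas 2.3.3 and SciPy 1.17.1, and figures were drawn with matplotlib 3.10.9. A whole-number pileup and a background were recovered for each record from fold and p-value (Poisson, tolerance 0.001 on the −log10 scale). Only 2 vehicle records missed the tolerance, and they kept their nearest whole-number pileup. The recovery and stitching were tested on simulated data. Tags per kb are the genome-wide background divided by the fragment length. No test was run.

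The clusters, kinds and lists were chosen with earlier results of these data known. Clusters are named by most vehicle records (5), lowest and highest ratio of GSK to vehicle records (3 each), difference between 24 h and 4 h (3 each) and local background relative to vehicle (3 each). The alternatives were 13 planned and 3 added settings.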

Additional observations from a re-analysis of the deposited data

Results flagged for a closer look

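Outside chromosomes 1 to 22, which the comparisons above did not use, the same rule found 4 dense clusters in the vehicle list, with 55 vehicle, 52 GSK 4 h and 32 GSK 24 h records. On chrX:114960139-115005313, where 13 of 16 summit distances were close to 2979 bp, there were 17 vehicle, 20 GSK 4 h and 16 GSK 24 h records, and the local background was 38.8, 40.5 and 26.5 times the genome-wide level. Unplaced sequence gl000228 held 21, 15 and 3 records at a spacing of 3293 bp, close to that of the clusters at the ends of chromosomes 4 and 10, and local backgrounds of 13.2, 12.1 and 9.93. Unplaced sequence gl000220 held 7, 5 and 4 records with local backgrounds of 92.3, 46.7 and 16.8, and gl000226 held 10, 12 and 9 records with 90.6, 73.0 and 108.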

How the results depend on the processing

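No paired analysis was possible because the 2 replicates of a group share 1 peak list, and no replicate could be left out. The number of clusters was 6 and 205 with gaps of 1000 and 5000 bp, 189 and 12 with 5 or 8 records, 25 and 10 at a −log10 q of 5 and 10, 23 after merging within 250 bp, and 112 and 87 in the GSK lists. The record ratios to vehicle, 0.910 (4 h) and 0.790 (24 h), were 0.711 and 0.605 with a gap of 1000 bp and 0.477 and 0.270 at a −log10 q of 10. They reversed to 1.501 and 1.0998 in clusters chosen in GSK 4 h and to 1.19 and 1.48 in those chosen in GSK 24 h. The covered length ratios, 0.965 and 0.886, were 0.560 and 0.339 at a −log10 q of 10, and 0.779 at 24 h at 5. They reversed to 1.283 and 1.04 (chosen in GSK 4 h) and to 1.17 and 1.20 (chosen in GSK 24 h). In these reversals the list that chose the clusters had the most records.

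The median local background ratio over clusters mixes kinds that moved in opposite directions, and its side of 1 depended on which clusters were kept. At 4 h it was 0.993, and it was 1.097 and 1.095 with gaps of 1000 and 5000 bp, 1.12 with 5 records, 1.11 without clusters beside a record-free stretch (chosen after seeing the data), 0.729 with 8 records, 0.794 and 0.738 at a −log10 q of 5 and 10, and 0.803 after merging. At 24 h it was 1.03, and it was 0.861 with 8 records, 0.554 at a −log10 q of 10, 0.934 in clusters chosen in GSK 4 h and 0.912 in those chosen in GSK 24 h. The cause of these shifts was not tested. In all other settings run, counts stayed within 1.5 times, record ratios within their counting intervals (0.785 to 1.06 and 0.678 to 0.922) and the other ratios within 1.1 times the values given. The intervals take the records of a cluster as independent, and the settings reuse the same lists, so staying within them is not a test of stability.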
